A study of Homo sapiens with 8 samples.

Results

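The 39 genes of glycolysis and the hypoxia response described here cover glucose entry and glycolysis, the fate of pyruvate, the PFKFB enzymes, the HIF sensors and regulators, and other HIF targets. A probe set was taken where the annotation of the U133 Plus 2.0 array gave 1 of these genes as its only symbol. This gave 84 of the 54675 probe sets, for 37 of the 39 genes. Of these, 24 genes had 2 or more probe sets and 13 had 1. SLC16A1 and SLC16A3, the lactate transporters, are not analysed here. Of the 84, the 3 GAPDH quality controls of the array were not tested, which left 81.

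Glycolysis turns glucose into pyruvate and lactate in a chain of cytoplasmic enzymes. When oxygen falls, the prolyl hydroxylases that mark the hypoxia-inducible factor (HIF) alpha subunits for destruction lose activity, and HIF then switches on glucose transporters, most glycolytic enzymes, the kinases that close off pyruvate oxidation, and genes of blood vessel growth, mitophagy and collagen processing. Plasma cell tumours grow in bone marrow, a tissue of low oxygen, and their glycolytic and HIF target genes have drawn interest for that reason.

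The series used 8 arrays, 1 for each culture: 4 of JJN3 and 4 of RPMI-8226, both established lines from human plasma cell tumours (multiple myeloma). The cultures of a line carried a lentiviral shRNA against IRE1, whose gene is ERN1, a lentiviral shRNA against XBP1, a lentiviral non-targeting (NT) shRNA, or no virus. IRE1 is a sensor of endoplasmic reticulum stress that splices the XBP1 message, and the spliced form encodes a transcription factor of secretory cells. Infected cells had 16 h with virus and 8 µg/mL polybrene, and cells were harvested at 96 h. All 8 cultures were grown in IMDM with serum, and no label names a low-oxygen culture. Each line is a single established line, each treatment had 1 culture a line (n = 2 over both), and nothing in the labels says that cultures were repeated, so the p-values measure the spread between these arrays. The deposited values are centred on each probe set's median over the 8 arrays and are taken as log2 units. They give differences between arrays but no level, so neither presence of a gene nor signal over background can be read, and no gene is set against another by level.

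The 8 arrays split by line first. The median over all probe sets was -0.06 to -0.04 on the JJN3 arrays and 0.03 to 0.06 on the RPMI-8226 arrays. Actin 3′ minus 5′ probe sets, a sign of RNA integrity, stood at 0.13 to 0.42 in JJN3 and -0.61 to -0.43 in RPMI-8226, while the same measure of GAPDH overlapped between the lines. The hybridisation controls had a median of 0.43 on the JJN3 IRE1 shRNA array and of -0.02 to 0.03 on the other JJN3 arrays. Plasma cell markers (20 probe sets of 10 genes) had array medians of -0.20 to 0.22 in JJN3 and -0.14 to 0.17 in RPMI-8226, which says nothing of their presence. Medians for T and NK cell markers were -0.26 to -0.08 in JJN3 and 0.16 to 0.21 in RPMI-8226. Those for myeloid markers were -0.19 to -0.03 and 0.03 to 0.12, and those for stromal and epithelial markers -0.15 to -0.04 and 0.07 to 0.09. These lists were lower in JJN3, as was the median over all probe sets. Erythroid markers (6 probe sets of 2 genes) overlapped, with -0.05 to 0.12 in JJN3 and -0.10 to 0.08 in RPMI-8226. The part of these measures in the results was not tested. The targeted genes checked the labels in part. With XBP1 shRNA, the XBP1 signal (200670_at) was 45.6% of that with NT shRNA in JJN3 and 65.9% in RPMI-8226. The other XBP1 probe set, 242021_at, was at 102.3% and 87.1%. On the arrays labelled IRE1 shRNA, ERN1 (235745_at and 227755_at) was at 53.9% and 44.7% of NT shRNA in JJN3 but at 129.8% and 117.1% in RPMI-8226, above NT shRNA despite the label of that array. In RPMI-8226 the NT shRNA array itself had these ERN1 probe sets at 49.4% and 45.2% of uninfected cells (95.7% and 87.6% in JJN3), and the IRE1 shRNA array had them at 64.1% and 53.0% of uninfected cells (51.6% and 39.2% in JJN3). Relative to NT shRNA, the ERN1 probe set 207061_at on the IRE1 shRNA arrays was at 114.3% in JJN3 and 88.6% in RPMI-8226. XBP1 on these arrays was at 16.8% and 64.7% in 200670_at, but at 107.3% and 99.55% in 242021_at. With XBP1 shRNA, ERN1 (235745_at) was at 42.9% of NT shRNA in JJN3 and 36.7% in RPMI-8226. ERN1 (235745_at and 227755_at) was thus lower on the XBP1 shRNA array than on the IRE1 shRNA array in both lines. XBP1 (200670_at) was lower on the IRE1 shRNA array than on the XBP1 shRNA array in both, by little in RPMI-8226 (-0.60 against -0.58). ERN1 207061_at followed this in JJN3 only and XBP1 242021_at in neither line. The arrays of both shRNAs are therefore called by their label.

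**Figure D1:**
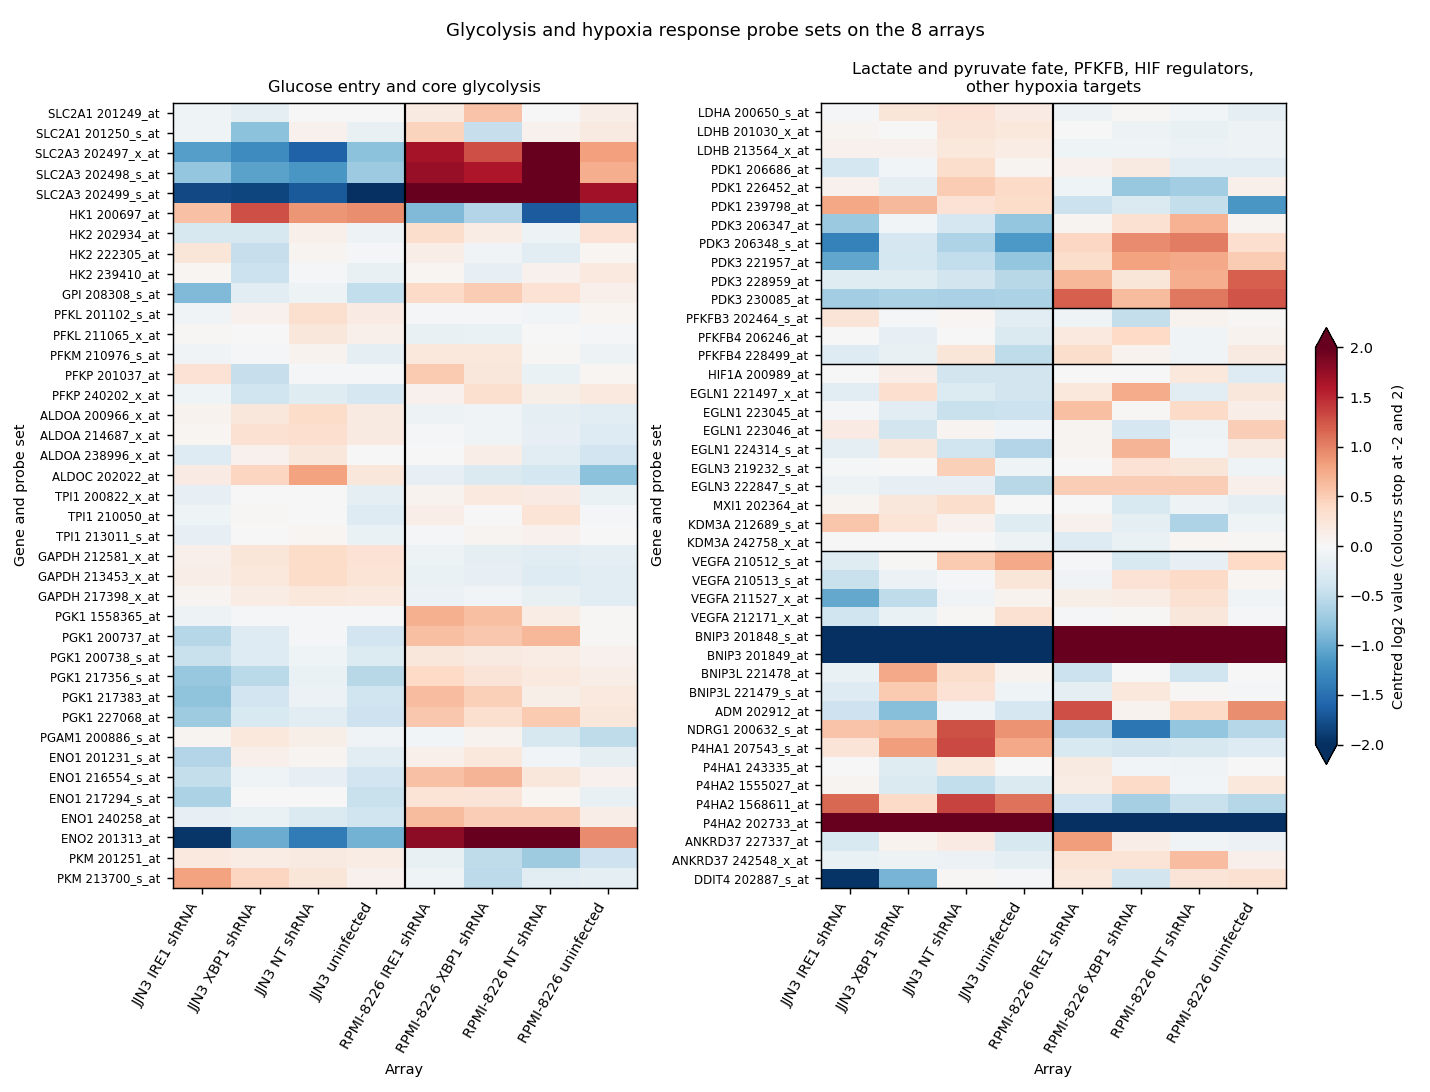
Centred log2 value of the 81 tested probe sets of the 37 genes (rows) on the 8 arrays (columns), JJN3 left of the vertical line and RPMI-8226 right of it; horizontal lines part the gene roles and colours stop at -2 and 2. BNIP3, SLC2A3, ENO2 and PDK3 are low in JJN3, and P4HA2 (202733_at), HK1 and NDRG1 are high in JJN3, on all 4 arrays of the line.

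The largest differences among these genes lay between the 2 myeloma lines. In JJN3, the mitophagy receptor BNIP3, the high-affinity glucose transporter SLC2A3, the enolase ENO2 and the pyruvate dehydrogenase kinase PDK3 were lower than in RPMI-8226, while the collagen prolyl hydroxylase subunit P4HA2, hexokinase HK1 and the stress-response gene NDRG1 were higher. With limma (adjusted p under 0.05 over all 54613 probe sets tested, treatment as a block), 17 member probe sets were higher in JJN3 and 32 lower, 49 of 81 or 60.5%. Over all probe sets the share called was 56%, with 22.8% higher and 33.3% lower, so the members' share lay near the background. The median difference, JJN3 minus RPMI-8226, was -0.18 over the members and -0.14 over all probe sets. Re-scaling moved the split: it was 22 higher and 26 lower with each array centred on its median, 22 and 25 after cyclic loess and 21 and 28 after quantile normalisation. The median of all probe sets was -0.05 with the arrays centred. By gene, 26 of the 37 had a called probe set and 11 had none. The share by gene was not worked out over all genes, and several probe sets give a gene more chances of a call. P4HA2 had probe sets called in both directions. Of the 81 probe sets, 17 were called and differed at least 2-fold, and they came from 10 genes. Of all probe sets, called or not, 14.8% reached that size. The 4 arrays of each line did not overlap for 42 of the 81, against 48.7% of all probe sets. Each p-value here sets 4 cultures of JJN3 under different treatments against 4 of RPMI-8226.

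**Figure D2:**
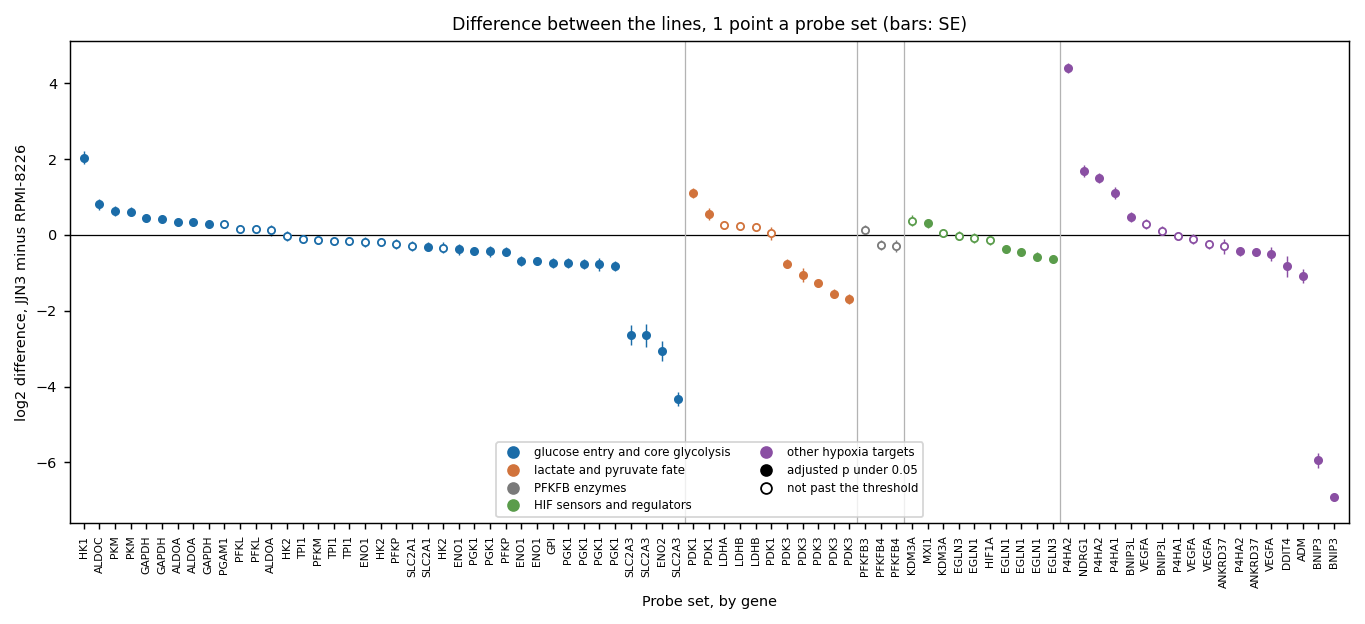
Log2 difference, JJN3 minus RPMI-8226, of each of the 81 probe sets (points; bars are SE of the limma fit), ordered by size within each gene role and labelled by gene. Filled points had an adjusted p under 0.05; BNIP3 (-6.91 and -5.95) and P4HA2 (4.42) mark the ends of the range, while most glycolytic enzymes lie between -1 and 1.

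Promoters are printed for 4 genes that the results turn on: BNIP3 and ENO2, both much lower in JJN3, PGK1, whose probe sets were all lower in JJN3, and DDIT4, the gene with the largest difference on silencing. Each is the stretch of 250 bases before the gene's start in the RefSeq promoter table (GRCh38.p14). Capitals mark ACGTG and GCGTG, the forms of the HIF core motif, on either strand, so that CACGT and CACGC are the same motifs read from the other strand and CACGTG holds ACGTG on both. BNIP3 is at chr10:131981924-131982173 (minus strand), ENO2 at chr12:6914330-6914579 (plus), PGK1 at chrX:78103998-78104247 (plus) and DDIT4 at chr10:72273674-72273923 (plus).
BNIP3: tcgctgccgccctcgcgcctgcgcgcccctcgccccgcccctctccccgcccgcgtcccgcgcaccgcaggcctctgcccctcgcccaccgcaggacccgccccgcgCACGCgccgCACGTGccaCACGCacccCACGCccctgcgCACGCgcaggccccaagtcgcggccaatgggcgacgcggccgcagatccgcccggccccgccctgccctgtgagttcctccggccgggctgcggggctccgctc
ENO2: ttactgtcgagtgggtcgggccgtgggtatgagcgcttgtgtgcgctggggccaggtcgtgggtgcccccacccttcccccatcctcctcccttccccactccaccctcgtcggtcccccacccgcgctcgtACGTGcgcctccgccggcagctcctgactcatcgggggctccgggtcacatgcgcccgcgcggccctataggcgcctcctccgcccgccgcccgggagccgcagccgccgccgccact
PGK1: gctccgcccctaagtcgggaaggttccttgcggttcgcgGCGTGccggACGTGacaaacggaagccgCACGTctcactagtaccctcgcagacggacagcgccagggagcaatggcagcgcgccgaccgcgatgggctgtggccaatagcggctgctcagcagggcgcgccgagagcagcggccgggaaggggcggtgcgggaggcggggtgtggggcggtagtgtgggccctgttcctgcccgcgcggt
DDIT4: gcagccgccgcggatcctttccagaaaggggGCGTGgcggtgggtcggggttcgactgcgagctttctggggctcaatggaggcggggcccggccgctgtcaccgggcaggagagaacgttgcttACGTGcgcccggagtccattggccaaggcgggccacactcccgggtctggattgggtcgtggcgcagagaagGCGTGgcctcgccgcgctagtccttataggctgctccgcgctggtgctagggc

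The BNIP3 stretch held 2 ACGTG and 4 GCGTG matches over both strands, PGK1 2 and 1, DDIT4 1 and 2, and ENO2 1 ACGTG alone. Entries were found for 33 member genes with 59 starts. ACGTG was found in 39.0% of those starts, and in 18.5% of the 35116 promoters of the same length in the table. GCGTG was found in 35.6% of the member starts and in 32.2% of all promoters, and either motif in 59.3% and 43.2%. TGACGTG, a core of the XBP1 binding element that itself holds ACGTG, was found in 3.39% of member starts and 1.68% of all promoters. These matches describe letters and not binding sites, and starts of a gene share sequence. The promoters were not matched for base composition, and HIF targets are among the members. The part of either in these shares was not tested.

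Glucose entry and glycolysis made up 39 of the tested probe sets, from 17 genes, with 9 higher and 16 lower in JJN3. SLC2A3 (202499_s_at), the transporter also known as GLUT3, had -1.80, -1.84, -1.68 and -2.08 in JJN3 with IRE1 shRNA, XBP1 shRNA, NT shRNA and uninfected, the order kept for every set of 4 values, against 2.62, 2.21, 3.37 and 1.68 in RPMI-8226. No array of a line reached the other line, and the RPMI-8226 NT shRNA array stood highest. The difference was -4.32 ± 0.19 (SE; limma adjusted p = 1.73e-07), or 20.0-fold lower in JJN3. Its other probe sets were lower by 6.25-fold and 6.28-fold. SLC2A1, the basal transporter GLUT1, differed far less: 201250_s_at was lower (-0.31, limma adjusted p = 0.0447) and 201249_at had -0.29 (0.0991), and the SLC2A1 call was lost under each of the 3 re-scalings (limma adjusted p = 0.0606 to 0.209).

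The hexokinases, which trap glucose as its phosphate, did not move as a pair. HK1 (200697_at) had 0.59, 1.30, 0.88 and 0.93 in JJN3, against -0.88, -0.59, -1.66 and -1.34 in RPMI-8226. The lines were apart on every array, and the difference was 2.04 ± 0.16 (limma adjusted p = 8.73e-06), or 4.12-fold higher in JJN3. The 3 probe sets of HK2, the inducible hexokinase, had differences of -0.33 to -0.02, none past the threshold.

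The later steps of the pathway held the second large difference. ENO2 (201313_at), the enolase best known from neurons, had -1.94, -1.00, -1.40 and -0.94 in JJN3, against 1.79, 2.21, 2.04 and 0.94 in RPMI-8226. The lines did not overlap, and the uninfected array of each line lay nearest the other line. The difference was -3.06 ± 0.25 (limma adjusted p = 1.01e-05), or 8.36-fold lower in JJN3. The widely expressed enolase ENO1 was lower in 3 of 4 probe sets, with differences of -0.69 to -0.38, and the call of 217294_s_at was lost under each of the 3 re-scalings (limma adjusted p = 0.0972 to 0.217). PGK1 (227068_at), the first enzyme of the pathway to yield ATP, had -0.71, -0.31, -0.22 and -0.42 in JJN3, against 0.54, 0.32, 0.52 and 0.22 in RPMI-8226. All 6 PGK1 probe sets were lower in JJN3 without overlap of the arrays. Their differences ran from -0.81 to -0.42, and that of 227068_at was -0.81 ± 0.13 (limma adjusted p = 0.000607). The weakest calls among them ended under re-scaling, 1558365_at in 2 of 3 and 200738_s_at in 1.

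The other members of the pathway were chosen as examples after their values were seen. GAPDH, the dehydrogenase often used as a loading control, was higher in JJN3 in all 3 tested probe sets, by 0.29 to 0.44. PKM, the pyruvate kinase of growing cells, was higher in both of its probe sets (0.62 and 0.64), as was the aldolase ALDOC (0.81). ALDOA was higher in 2 of 3 probe sets (both 0.35). Lower in JJN3 were GPI (-0.74), which turns glucose phosphate into its fructose form, and PFKP (240202_x_at, -0.44), the platelet subunit of phosphofructokinase, although that PFKP call was lost after cyclic loess (limma adjusted p = 0.0678). PFKL, PFKM, TPI1 and PGAM1 had no called probe set, with differences of -0.16 to 0.28. PGAM1 was called higher under each of the 3 re-scalings, and PFKL (211065_x_at) after cyclic loess. Genes of this pathway thus differed in both directions between the lines.

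The fate of pyruvate was covered by 11 probe sets of 4 genes. PDK3 and PDK1 encode kinases that switch off pyruvate dehydrogenase and so keep pyruvate out of mitochondrial oxidation. PDK3 (230085_at) had -0.70, -0.63, -0.65 and -0.63 in JJN3, against 1.19, 0.63, 1.05 and 1.26 in RPMI-8226. The JJN3 arrays lay close together and below every RPMI-8226 array. The difference was -1.69 ± 0.13 (limma adjusted p = 6.02e-06), or 3.22-fold lower, and all 5 PDK3 probe sets were lower in JJN3, with differences of -1.69 to -0.76. PDK1 went the other way. PDK1 (239798_at) had 0.77, 0.66, 0.29 and 0.36 in JJN3, against -0.43, -0.29, -0.48 and -1.16 in RPMI-8226. The lines did not overlap, with a difference of 1.11 ± 0.13 (limma adjusted p = 0.000121), or 2.15-fold higher in JJN3. A second PDK1 probe set, 226452_at, was higher by 0.55 and the remaining one, 206686_at, had 0.04. LDHA and LDHB, the subunits of lactate dehydrogenase, had differences of 0.22 to 0.25 that missed the threshold on the deposited scale and passed it under each of the 3 re-scalings. PFKFB3 and PFKFB4, which set the level of the activator of phosphofructokinase, had differences of -0.30 to 0.13 and no call.

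Of 10 probe sets for 5 HIF sensors and regulators, 1 was higher in JJN3 and 4 were lower. HIF1A, the oxygen-regulated subunit itself, had -0.00, 0.14, -0.36 and -0.36 in JJN3, against 0.01, 0.00, 0.21 and -0.25 in RPMI-8226. Its lines overlapped and the difference was -0.14 (limma adjusted p = 0.379). That probe set measures message, while HIF1A is controlled mainly through the stability of its protein. The following were named after their values were seen. EGLN1, the main oxygen-sensing hydroxylase of HIF, was lower in 3 of 4 probe sets, with differences of -0.57 to -0.37. Of those calls, 223045_at held under the 3 re-scalings, 221497_x_at was lost in 2 of them and 224314_s_at after cyclic loess. EGLN3, a hydroxylase that HIF itself induces, was lower in 222847_s_at (-0.64) and had -0.02 in 219232_s_at. MXI1, an antagonist of MYC, was higher by 0.30 (limma adjusted p = 0.0487). KDM3A, a histone demethylase, had 0.37 in 212689_s_at (0.0508), and was called higher after cyclic loess (0.51, limma adjusted p = 0.0192) and with the arrays centred (0.46, 0.0275).

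Other HIF targets gave the ends of the range, with 5 of 18 probe sets higher and 7 lower in JJN3, from 9 genes. BNIP3 (201849_at), an outer mitochondrial membrane protein that marks mitochondria for removal, had -3.40, -3.23, -3.21 and -3.53 in JJN3, against 3.67, 3.89, 3.51 and 3.21 in RPMI-8226. The spread within a line was small beside the gap between the lines. The difference was -6.91 ± 0.11 (limma adjusted p = 1.03e-09), or 121-fold lower in JJN3, and the second probe set, 201848_s_at, was 62.0-fold lower. Its relative BNIP3L, also a mitophagy receptor, had 0.47 in 221478_at (higher in JJN3, with overlapping arrays) and 0.11 in 221479_s_at.

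P4HA2 and P4HA1 are the catalytic subunits of the enzyme that hydroxylates collagen prolines. P4HA2 (202733_at) had 2.11, 2.05, 2.36 and 1.99 in JJN3, against -2.72, -1.99, -2.00 and -2.45 in RPMI-8226. The lines were apart by 4.42 ± 0.13 (limma adjusted p = 2.10e-08), or 21.4-fold higher in JJN3. The other P4HA2 probe sets did not settle on a direction: 1568611_at was higher by 1.51 (0.75 after cyclic loess) and 1555027_at was lower (-0.43, a call lost after cyclic loess). P4HA1 (207543_s_at) had 0.25, 0.83, 1.32 and 0.75 in JJN3, against -0.31, -0.37, -0.32 and -0.25 in RPMI-8226. It was higher by 1.10 ± 0.16 (limma adjusted p = 0.000392), but by 0.34 and past no threshold after cyclic loess (0.0797), and 243335_at had -0.02.

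NDRG1, ADM and DDIT4 followed. NDRG1 (200632_s_at) had 0.57, 0.63, 1.28 and 0.90 in JJN3, against -0.59, -1.45, -0.77 and -0.57 in RPMI-8226, a difference of 1.69 ± 0.16 (limma adjusted p = 2.60e-05) with no overlap. ADM (202912_at), which encodes the vasodilator peptide adrenomedullin, had -0.42, -0.84, -0.07 and -0.33 in JJN3, against 1.29, 0.07, 0.38 and 0.93 in RPMI-8226. It was lower in JJN3, with a difference of -1.08 ± 0.18 (limma adjusted p = 0.000945), and the closest arrays stood at -0.07 in JJN3 and 0.07 in RPMI-8226. DDIT4 (202887_s_at), a stress-induced brake on mTOR signalling, had -1.96, -0.93, 0.03 and -0.03 in JJN3, against 0.21, -0.37, 0.25 and 0.31 in RPMI-8226. Here the lines overlapped, and the lowest values were those of the JJN3 IRE1 shRNA and XBP1 shRNA arrays. DDIT4 was called lower in JJN3, at -0.82 ± 0.28 (limma adjusted p = 0.0313), a call that ended with the arrays centred (0.0546) or without the treatment block (0.100). The DDIT4 difference was -0.37 without either IRE1 shRNA array and -1.92 after cyclic loess. VEGFA, the angiogenic growth factor, had 1 of 4 probe sets called (211527_x_at, -0.51), which was lost in 2 of the 3 re-scalings, and ANKRD37 had 1 of 2 (242548_x_at, -0.45).

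Of the 14 genes whose probe sets were all called the same way, 6 had 2 or more probe sets. The same count was not made over all genes. Leaving out an array left 39 to 45 called probe sets, of which 39 to 42 were among the 49. Without either NT shRNA array 11 were higher and 34 lower, against 17 and 32 with all arrays. In whole cultures, fewer cells of a kind and less RNA per cell cannot be told apart.

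Genes of the same pathways that are not among the 39 also differed between the lines. Of 69 probe sets for further enzymes of glycolysis, pyruvate and glycogen (36 genes), 18 were higher in JJN3 and 23 lower. Of 16 for the pentose phosphate pathway (6 genes), 3 were higher and 8 lower. The HIF pathway (13 genes) had 13 higher and 15 lower of 36, and further hypoxia targets (26 genes) 21 higher and 39 lower of 87. These shares can be read against the 56% called among all probe sets. The examples that follow were chosen after their values were seen. EPAS1, the HIF-2 alpha subunit, was lower in JJN3 (200878_at, -3.71), as were the HIF antagonist CITED2 (209357_at, -2.14) and the enolase ENO3 (204483_at, -2.46). Higher in JJN3 were PLOD2, a collagen lysyl hydroxylase (202620_s_at, 8.29), and SLC16A7, a monocarboxylate transporter (230003_at, 5.18), all by limma.

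The second comparison, silencing of either gene, set the 4 arrays labelled XBP1 shRNA or IRE1 shRNA against the 4 of NT shRNA or uninfected cells with the line as a block. No member probe set passed (limma, 0 of 81; background 0%), and 8 had an unadjusted p under 0.05 (9.88%, against 9.3% of all probe sets). The 5 largest differences are given as values. DDIT4 had -1.96 and -0.93 in silenced JJN3 and 0.03 and -0.03 in its controls, and 0.21 and -0.37 in silenced RPMI-8226 and 0.25 and 0.31 in its controls. Silenced and control arrays did not overlap within either line, and the gap in JJN3 was the wider. The DDIT4 difference was -0.90 ± 0.27 (limma adjusted p = 0.325). VEGFA (210512_s_at) had -0.52 ± 0.16 (limma adjusted p = 0.349), EGLN1 (221497_x_at) 0.43, PDK1 (239798_at) 0.42 and NDRG1 -0.42, the last 3 with limma adjusted p of 0.379 to 0.512. Other probe sets of PDK1 and EGLN1 differed in sign. PDK1 226452_at and 206686_at had -0.50 and -0.41 in JJN3 and -0.12 and 0.34 in RPMI-8226. EGLN1 223046_at had -0.10 in JJN3 and -0.34 in RPMI-8226, while 223045_at and 224314_s_at had 0.06 to 0.52. By role, medians were 0.03 for glycolysis, -0.16 for other hypoxia targets and 0.20 for HIF sensors and regulators, beside 0.01 over all probe sets.

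**Figure D3:**
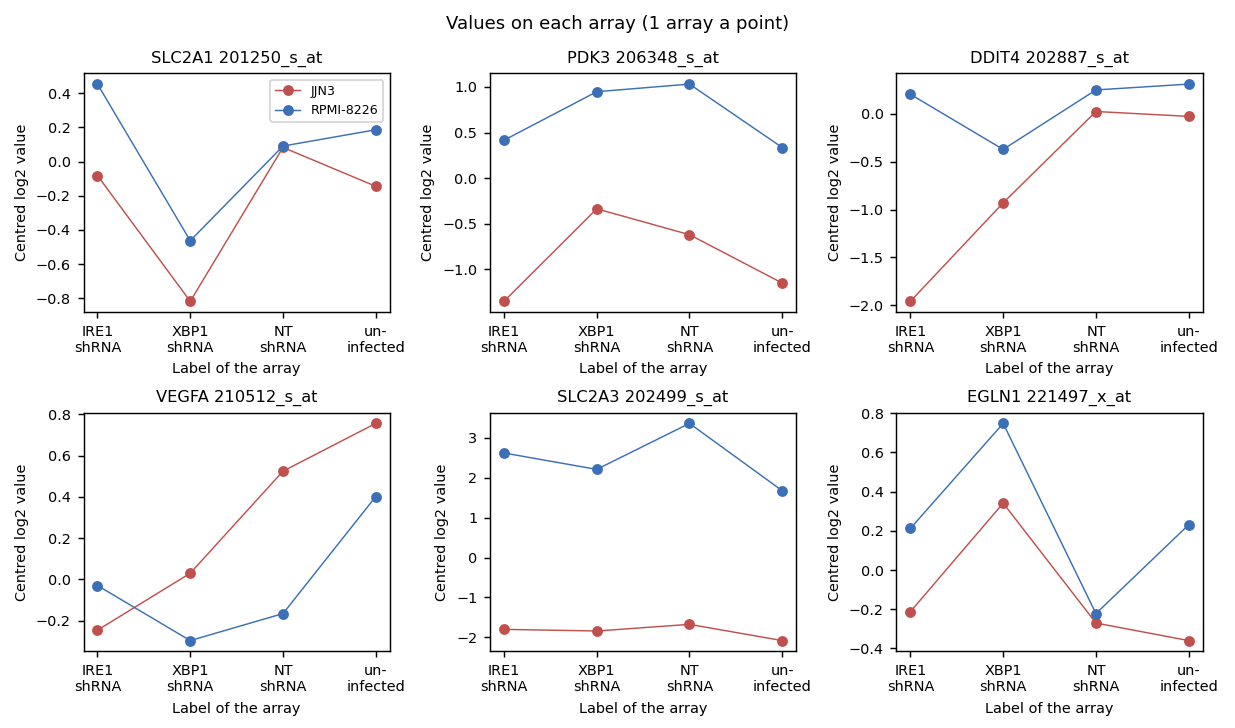
Centred log2 value of 6 probe sets on each array by label (IRE1 shRNA, XBP1 shRNA, NT shRNA, uninfected), with JJN3 in red and RPMI-8226 in blue; each point is 1 array, and lines join the arrays of a cell line without implying an order. SLC2A1 201250_s_at is lowest on the XBP1 shRNA array of each line, DDIT4 is lowest on the JJN3 IRE1 shRNA array, and SLC2A3 202499_s_at is highest on the NT shRNA array of each line, which its other probe sets are not in JJN3.

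With XBP1 shRNA against NT shRNA, no member probe set passed (limma, 0 of 81; background 1.21%), and 7 had an unadjusted p under 0.05 (8.64%, against 13.7%). EGLN1 came nearest. EGLN1 (221497_x_at) had 0.34 in JJN3 and 0.75 in RPMI-8226 with XBP1 shRNA, against -0.27 and -0.22 with NT shRNA. The groups did not overlap, and the difference was 0.79 ± 0.16 (limma adjusted p = 0.0579). Among the other EGLN1 probe sets, 224314_s_at differed by 0.63 in JJN3 and 0.74 in RPMI-8226, but 223046_at by -0.42 and -0.23 and 223045_at by 0.22 and -0.35. The probe sets of this gene therefore disagreed in sign.

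The glucose transporters and HK1 made up most of the rest. SLC2A1 (201250_s_at) had -0.82 in JJN3 and -0.46 in RPMI-8226 with XBP1 shRNA, against 0.08 and 0.09 with NT shRNA. That gave -0.73 ± 0.16 (limma adjusted p = 0.0716), while the SLC2A1 probe set 201249_at differed by -0.19 in JJN3 and 0.58 in RPMI-8226. HK1 had 1.30 and -0.59 with XBP1 shRNA, against 0.88 and -1.66 with NT shRNA, a difference of 0.74 (limma adjusted p = 0.184). SLC2A3 (202499_s_at) had -0.66 (limma adjusted p = 0.304) and 0.39 where uninfected cells replaced NT shRNA as the control, so its sign hung on the control. In JJN3 the SLC2A3 probe sets differed in sign, with -0.17 in 202499_s_at, 0.35 in 202497_x_at and 0.08 in 202498_s_at. DDIT4 had -0.96 in JJN3 and -0.62 in RPMI-8226, -0.79 together (0.435 by limma).

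With the arrays labelled IRE1 shRNA against NT shRNA, again no member passed (limma, 0 of 81; background 0.0183%), and 12 had an unadjusted p under 0.05 (14.8%, against 9.47%). RPMI-8226, in which ERN1 was not below NT shRNA in 235745_at and 227755_at, is 1 of the 2 replicates here. On its IRE1 shRNA array these probe sets were at 64.1% and 53.0% of uninfected cells, and ERN1 207061_at was at 88.6% of NT shRNA. DDIT4 had -1.96 in JJN3 and 0.21 in RPMI-8226 with IRE1 shRNA, against 0.03 and 0.25 with NT shRNA. The difference lay in JJN3 (-1.99), with -0.05 in RPMI-8226, and the joint value was -1.02 ± 0.39 (limma adjusted p = 0.452). Without the RPMI-8226 IRE1 shRNA array it was -1.91, which rests on a lone JJN3 array assumed to vary like the other groups. No call is read from that fit.

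PDK3 held 3 of those 12 probe sets. PDK3 (206348_s_at) had -1.35 in JJN3 and 0.42 in RPMI-8226 with IRE1 shRNA, against -0.62 and 1.03 with NT shRNA. Both lines had lower values with IRE1 shRNA (-0.73 in JJN3 and -0.62 in RPMI-8226), and the joint difference was -0.67 ± 0.16 (limma adjusted p = 0.212). The PDK3 probe sets 206347_at and 221957_at had -0.41 and -0.55 in JJN3 and -0.64 and -0.41 in RPMI-8226, while 228959_at and 230085_at had 0.13 and -0.05 in JJN3 and -0.06 and 0.14 in RPMI-8226. The named probe set therefore does not stand for the gene. KDM3A (212689_s_at) had 0.58 (0.47 in JJN3 and 0.70 in RPMI-8226; limma adjusted p = 0.385) while its other probe set, 242758_x_at, had 0.01 in JJN3 and -0.31 in RPMI-8226. VEGFA (211527_x_at) had -0.56, with -0.94 in JJN3 and -0.18 in RPMI-8226. P4HA1 (207543_s_at) had -0.52, with -1.06 in JJN3 and 0.01 in RPMI-8226, and both had limma adjusted p of 0.511 to 0.544.

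Set against each other, the IRE1 shRNA and XBP1 shRNA arrays gave 2 calls, 1 in each direction, 2.47% of the members beside 1.9% of all probe sets (0.908% higher and 0.987% lower). These were the only member calls in the comparisons of treatments, and 14 members had an unadjusted p under 0.05 (17.3%, against 13.7%). Their direction rests on the labels, which the targeted genes bore out only in part. SLC2A1 (201250_s_at) was higher with IRE1 shRNA: -0.08 in JJN3 and 0.45 in RPMI-8226, against -0.82 and -0.46 with XBP1 shRNA. The difference was 0.83 ± 0.16 (limma adjusted p = 0.0406), 0.74 in JJN3 and 0.92 in RPMI-8226, and the SLC2A1 probe set 201249_at had 0.10 and -0.40. PDK3 (206348_s_at) was lower with IRE1 shRNA: -1.35 in JJN3 and 0.42 in RPMI-8226, against -0.34 and 0.95 with XBP1 shRNA. The difference was -0.77 ± 0.16 (limma adjusted p = 0.0480), -1.01 in JJN3 and -0.53 in RPMI-8226. The PDK3 probe sets 206347_at and 221957_at had -0.68 and -0.68 in JJN3 and -0.25 and -0.44 in RPMI-8226. In 228959_at and 230085_at the values were 0.01 and -0.07 in JJN3 and 0.43 and 0.56 in RPMI-8226. Over both lines 230085_at, the PDK3 probe set of widest spread, gave 0.25. Both calls were lost when the line was not a block (0 of 81). SLC2A1 passed without either NT shRNA array (limma adjusted p = 0.0493) and missed without any of the other 6 arrays (0.0694 to 0.231), and PDK3 missed without any array (0.0544 to 0.403).

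ADM, ENO2 and BNIP3L had wide differences between these shRNAs without passing the test. ADM had 0.82, with 0.42 in JJN3 and 1.22 in RPMI-8226 (limma adjusted p = 0.168). ENO2 had -0.68, with -0.94 in JJN3 and -0.41 in RPMI-8226 (0.478 by limma). Both probe sets of BNIP3L had lower values on the IRE1 shRNA array of each line, with 221478_at at -0.89 in JJN3 and -0.42 in RPMI-8226 (joint limma adjusted p = 0.147). The second, 221479_s_at, had -0.79 in JJN3 and -0.39 in RPMI-8226. Among the further pathway genes, chosen after their values were seen, RPIA, an isomerase of the pentose phosphate pathway, was lower on the arrays labelled IRE1 shRNA against NT shRNA (-1.54, limma adjusted p = 0.0446) and against XBP1 shRNA (-1.29, 0.00949), comparisons that share the IRE1 shRNA arrays. BPGM (-1.34) and PDP1 (-1.03), which make bisphosphoglycerate and reactivate pyruvate dehydrogenase, were also lower with IRE1 shRNA than with XBP1 shRNA (limma adjusted p = 0.0142 and 0.0459).

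Within a line each treatment had 1 array, so the next values carry no test. In JJN3 with IRE1 shRNA, 30 of 39 glycolysis probe sets were below NT shRNA, with a median of -0.21, and 28 of 39 were above it in RPMI-8226, with a median of 0.12. Of all probe sets, 49.1% were below NT shRNA in JJN3 and 50.2% in RPMI-8226 (49.7% above it), with medians of 0.01 and -0.00. Other hypoxia targets had 16 of 18 below NT shRNA in JJN3 (median -0.41), against 8 of 18 in RPMI-8226 (0.04). HIF sensors and regulators had 8 of 10 above NT shRNA in JJN3 (median 0.09) and 7 of 10 in RPMI-8226 (0.12). With XBP1 shRNA, 27 of 39 glycolysis probe sets were below NT shRNA in JJN3 (median -0.13) and 11 of 39 in RPMI-8226 (0.10). The shares of all probe sets below it were 50.9% and 48.9%. The NT shRNA array of a line is the shared control of these differences, and in JJN3 it was the highest of the 4 arrays for 22 of 39 glycolysis probe sets (56.4%, against 22.7% of all probe sets). Against uninfected cells, 26 of 39 were lower with IRE1 shRNA in JJN3 (median -0.10) and 5 of 39 in RPMI-8226 (0.27). With XBP1 shRNA against uninfected cells the count in JJN3 went the other way, with 16 of 39 lower and a median of 0.02, and 8 of 39 were lower in RPMI-8226 (0.20). Of all probe sets, 49.3% in JJN3 and 46.3% in RPMI-8226 were below uninfected cells with IRE1 shRNA, and 51.4% and 44.7% with XBP1 shRNA. In JJN3 the IRE1 shRNA array was the lowest of the 4 for 21 of 39 (53.8%, against 25.5% of all), and it is the array with high hybridisation controls. In RPMI-8226 the uninfected array was lowest for 23 of 39 (59.0%, against 27.9%). No member probe set differed by 2-fold the same way in both lines when XBP1 shRNA or IRE1 shRNA was set against NT shRNA, or IRE1 shRNA against XBP1 shRNA, beside 0.456%, 0.106% and 0.599% of all probe sets.

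**Figure D4:**
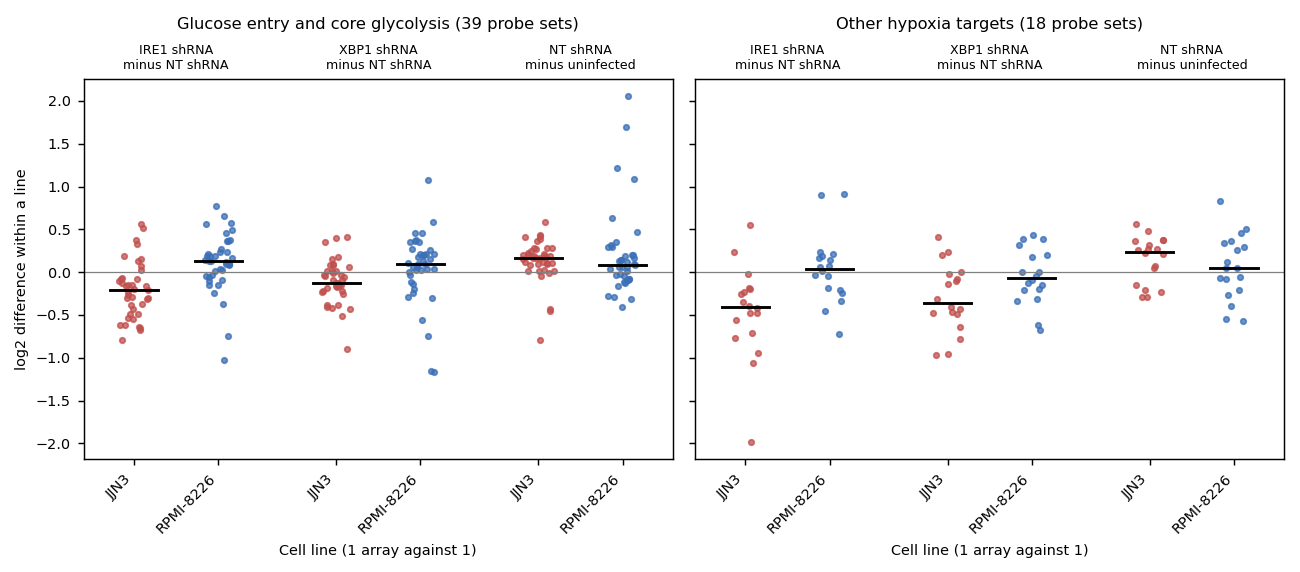
Log2 difference between 1 array and 1 within JJN3 (red) and within RPMI-8226 (blue) for the 39 probe sets of glucose entry and glycolysis (left) and the 18 of other hypoxia targets (right); each point is a probe set and the black bar is the median. Medians with IRE1 shRNA minus NT shRNA were -0.21 in JJN3 and 0.12 in RPMI-8226 for glycolysis.

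Whether silenced minus control differed between the lines was tested as an interaction, the value in JJN3 less that in RPMI-8226. The targets were not lowered alike on each array. XBP1 (200670_at) was at 16.8% of NT shRNA with IRE1 shRNA in JJN3 and 64.7% in RPMI-8226. With XBP1 shRNA it was at 45.6% and 65.9%. ERN1 (235745_at) with IRE1 shRNA was at 53.9% of NT shRNA in JJN3 and 129.8% in RPMI-8226, but at 51.6% and 64.1% of uninfected cells. Both controls enter the interaction, which over the 5 probe sets of XBP1 and ERN1 ran from -1.11 to 0.17 (median -0.04). A difference in response therefore cannot be told apart from unequal silencing. No member passed (limma, 0 of 81; background 0%), and 7 had an unadjusted p under 0.05 (8.64%, against 5.23%). The interaction was negative for 58 of 81 (71.6%, against 52% of all probe sets) and for 33 of 39 in glycolysis, with a median of -0.24 over the members and -0.01 over all probe sets. The largest were DDIT4 (-1.08), ENO2 (-0.81), VEGFA (211527_x_at, -0.78), PDK1 (206686_at, -0.75) and HK1 (-0.73), with limma adjusted p of 0.889 to 0.967. For DDIT4, silenced minus control was -1.44 in JJN3 and -0.36 in RPMI-8226. ENO2 differed in sign, with -0.30 in JJN3 and 0.51 in RPMI-8226.

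The last comparison, NT shRNA against uninfected cells, set infection with a non-targeting virus against none. No member passed (limma, 0 of 81; background 0%), and 7 had an unadjusted p under 0.05 (8.64%, against 5.57%). The difference was positive for 61 of 81 probe sets and negative for 24.7%, against 47.8% negative among all probe sets. Its median was 0.13 beside 0.01 over all probe sets. Within a line it was positive for 34 of 39 glycolysis probe sets in JJN3 and 25 of 39 in RPMI-8226, against 50.6% and 53.2% of all probe sets. SLC2A3 (202499_s_at) had -1.68 in JJN3 and 3.37 in RPMI-8226 with NT shRNA, against -2.08 and 1.68 in uninfected cells. Most of that lay in RPMI-8226 (1.69, against 0.41 in JJN3), and the joint difference was 1.05 ± 0.26 (limma adjusted p = 0.873). The other SLC2A3 probe sets, 202497_x_at and 202498_s_at, had -0.79 and -0.43 in JJN3, opposite in sign, and 1.22 and 2.05 in RPMI-8226. PDK3 (206348_s_at) had 0.61, ALDOC 0.52, BNIP3 (201848_s_at) 0.52 and PGK1 (200737_at) 0.50, each with the same adjusted p. ALDOC was higher on the NT shRNA array in both lines, by 0.58 in JJN3 and 0.47 in RPMI-8226.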

How the data were processed

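RNA of 8 cultures was measured on Affymetrix arrays, 1 for each line and treatment. RMA, named without a version per the submitters' processing notes, adjusts background and quantile-normalises arrays. The deposited values were taken as log2 because RMA gives that scale; neither log base nor centring is stated. Each probe set's values are centred: their median across arrays was 0 for 100% (tolerance 1e-05). Symbols came from the platform annotation (41097 probe sets with 1 symbol, 1801 with several, 11777 not listed).

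The model, limma 3.58.1 (lmFit, eBayes; R 4.3.3), covered all 54613 probe sets other than AFFX controls, two-sided, with Benjamini-Hochberg adjustment over all and a threshold of 0.05. The line and treatment comparisons came from 1 fit of 4 treatments and line (3 residual degrees of freedom), silenced against control from a fit with line (5), and the interaction from another (4), in which both shRNAs of a line stand as replicates, and so do both its controls. Arrays with the same replicate number come from the same cell line, which pairs them, so the line is a block. The fits were tested on simulated data. Of 28 pairs of arrays, 0 held identical values. The number of arrays limits the precision.

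Named genes were the called probe sets of a comparison, at most 12 by size and 1 a gene, or the 5 largest where fewer than 5 genes passed. The members, lists and tests were chosen with earlier results of these data known. Alternatives were the unit (probe set or gene), the scaling, a filter on SD, a robust prior, the block, the control arrays and each array left out. Promoters were read with Python 3.11.15.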

Additional observations from a re-analysis of the deposited data

How the results depend on the processing

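The count for JJN3 against RPMI-8226 (49 probe sets) was 41 to 50 with other scalings, the filter on low SD, the robust prior or no treatment block, 39 to 45 with an array left out, and 25 or 28 genes when each gene had 1 value, from its probe set of highest SD or the mean of its probe sets. Leaving out an array also removes what its partner of the same treatment adds, so both arrays of a treatment gave the same count. Higher calls were 34.7% of all calls as deposited, 45.8% with arrays centred, 46.8% after cyclic loess and 42.9% after quantile normalisation. The call count for IRE1 shRNA against XBP1 shRNA (2) was 1 with the probe set of highest SD, 0 with the mean of probe sets, 0 after quantile normalisation, 1 after cyclic loess, 1 with arrays centred, 1 with probe sets of low SD left out, 2 with the robust prior, 0 with no replicate block, and 0 to 1 with an array left out. For IRE1 shRNA against NT shRNA the count changed only without the RPMI-8226 IRE1 shRNA array. That fit leaves a lone JJN3 array with this shRNA, so no call is read from it. With no replicate block the other treatment comparisons also had 0 calls, and the block changed no other call. Counts of 0 for silencing, XBP1 shRNA against NT shRNA, NT shRNA against uninfected and the interaction were 0 under every alternative run. Signs turned for SLC2A3 with XBP1 shRNA against uninfected cells (0.39) and for PDK3 when its probe set of highest SD was used (0.045 with IRE1 against NT shRNA, 0.25 with IRE1 against XBP1 shRNA, -0.12 with NT shRNA against uninfected); the cause was not tested. Among the values of named probe sets between the lines, 189 kept direction and call and 3 lost the call; with the mean of a gene's probe sets P4HA2 had 1.83, PDK1 0.57 and P4HA1 0.54, and between the shRNAs SLC2A1 had 0.34 and PDK3 -0.27. The centred values hold no signal over background, so dim probe sets could not be left out, and cyclic loess had no signal level to follow. Each re-scaling, quantile normalisation included, acted on values already normalised by RMA and then centred.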

Other observations

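Probe sets outside the rule gave values for the same genes. Probe sets shared by SLC2A3 and its close relative SLC2A14 followed the line as the SLC2A3 probe sets did: 222088_s_at had -1.55, -1.43, -1.27 and -1.17 in JJN3 with IRE1 shRNA, XBP1 shRNA, NT shRNA and uninfected, against 2.41, 1.93, 2.71 and 1.17 in RPMI-8226. In RPMI-8226 its highest value was on the NT shRNA array and its lowest on the uninfected array. The other, 216236_s_at, had -0.75 to -0.22 in JJN3 and 0.22 to 1.21 in RPMI-8226. These probe sets cannot tell the 2 transporter genes apart. The 3 GAPDH quality control probe sets of the array had 0.09 to 0.31 on the JJN3 arrays and -0.28 to -0.09 on the RPMI-8226 arrays, without overlap, the direction of the 3 tested GAPDH probe sets.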
